A study of Panax notoginseng with 2 samples.

Results

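Unstranded intergenic loci are stretches of the Panax notoginseng genome where reads were assembled into a transcript outside every reference gene and without a splice junction that would fix its strand. They were taken here as the loci with Cufflinks class code u (intergenic), no strand and a deposited length of at least 500 bases, which gave 3574 of 147111 loci, on 2580 of 32485 scaffolds and contigs. Panax notoginseng is a medicinal herb related to ginseng, and its roots were sequenced in 2 libraries. Plants treated with cadmium at 5 µM gave one of them, and untreated control plants gave the other. Both sets of plants were grown in the field, per the labels. With 1 library per group there was no replicate check and no test. An effect of cadmium and a difference between plants or preparations cannot be told apart.

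Cadmium is a toxic metal ion that plants take up through the root. Transcribed stretches outside annotated genes can be long untranslated ends that an annotation lacks, unannotated genes, non-coding RNAs or transposable elements. A transcript that starts before or ends after the annotated gene gives signal next to that gene, whereas an isolated transcript needs a promoter of its own. Such loci are therefore commonly sorted by their position relative to the nearest gene. The sequences of the scaffolds were not used here, and no name or function is given for any locus.

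In the text below, a gene locus is a locus whose listed transcript matches a reference gene, is a new splice form of one or overlaps its exons in another way (class codes =, j and o). The gap is the number of bases between an intergenic locus and the nearest gene locus on its scaffold. Levels are in FPKM (fragments per kilobase of transcript, scaled to the size of the library, as deposited). The log2 ratio is log2((cadmium FPKM + 1)/(control FPKM + 1)), which understates the change of low loci. Calls were made for loci that reached 1 FPKM in at least 1 library, as higher with a ratio of 1 or more and as lower with -1 or less.

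The deposited length was the locus's own length for 2642 of the 3574 loci, whose coordinates equalled the listed exon. The other 932 were deposited with coordinates that they shared with at least 1 other locus, so that their length was that of a merged span. Merged spans had a median of 12410 bases and reached 123797, while the listed exons inside them had a median of 672.5 bases. The longest such span, on scaffold1508, belonged to a locus whose exon ran from 98745 to 99702, and this locus held 1 cadmium and 0 control fragments. Among the merged loci, 322 had an exon under 500 bases, and the shortest exon had 204. The name "500 bases or more" therefore held for 3252 of the 3574 loci when their own exon was measured. All 192 loci covered by the deposited exon list had a single exon.

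The exon, not the deposited length, matched the fragment numbers. FPKM values of unspliced loci are whole multiples of a step set by length and library. Per kilobase, 11.9 fragments made up 1 FPKM in the cadmium library and 19.8 did in the control library. This is a 1.67-fold lower depth in cadmium, unless the authors' software had scaled the libraries to each other. With the exon length, 100% of the 548 cadmium values and of the 505 control values of merged loci with an exon of at least 500 bases were whole fragment numbers within 0.05. With the deposited length, 10.04% of the cadmium and 9.31% of the control values were. The exon was therefore taken as the position of every locus.

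Most of these class u loci lay apart from genes, and those close to a gene lay mainly on its upstream side. The exons of 719 loci (20.1%) fell inside a merged span that also held at least 1 gene locus, and they are called inside loci here. A gap of at most 1000 bases was found for 351 loci (9.82%), and these are called near. A gap of over 1000 and up to 10000 bases was found for 1438 loci (40.2%), and a larger gap for 520 (14.5%). For 546 loci (15.3%) the scaffold held no gene locus. The smallest gap was 51 bases, the median 4076 and the largest 80668. These assignments depend on how contigs end, and the lengths of the scaffolds were not used here.

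Of the near loci, 284 were upstream of the gene locus, 46 downstream and 21 had no defined side because gene loci at the same distance put them on different sides. The excess on the upstream side was 5.5 to 1 at gaps up to 200 bases (88 against 16 loci) and 7.5 to 1 between 200 and 500 bases (90 against 12). It was 3.85 to 1 between 1000 and 2000 bases (200 against 52). Between 2000 and 5000 bases the sides were close to even, with 350 upstream and 334 downstream, between 5000 and 10000 bases 268 were upstream and 193 downstream, and at larger gaps 249 and 265. Short unstranded intergenic loci, with a length under 500 bases, had the same lean, with 349 upstream and 29 downstream within 1000 bases. Stranded intergenic loci had the opposite lean, with 180 upstream and 244 downstream. For a spliced locus only 1 exon is listed, so its side and gap come from part of its transcript. Those of a single-exon locus come from the whole of it, so the sets are not measured alike. All counts of sides cover loci with class code u alone. Whether unspliced transcripts just beyond a gene end were given another class code was not tested. The counts therefore do not describe all transcription beyond gene ends, and the stranded loci are no check on the lean.

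**Figure D1:**
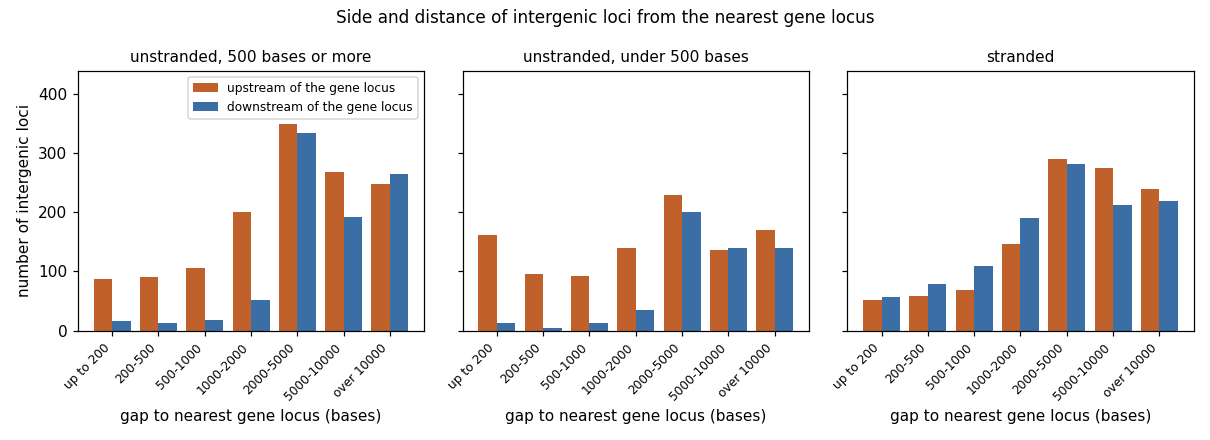
Number of intergenic loci (vertical axis) by gap to the nearest gene locus in bases (horizontal axis) and by side, for unstranded loci of 500 bases or more, unstranded loci under 500 bases and stranded loci. Up to 2000 bases both unstranded sets have more upstream than downstream loci (88 against 16 in the first band of the longer set), while the stranded set has more downstream ones. Only loci with class code u are counted, each placed by its listed exon, which for a spliced locus is part of the transcript.

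Inside loci shared their span mostly with genes that had a new splice form. Of the 719, 524 had 1 gene locus in the span and 195 had at least 2. Among the 524, the gene locus was a new splice form for 402, another exon overlap for 68 and a reference structure for 54. No exon of the 524 overlapped the listed exon of its gene locus, 494 lay to its right and 30 to its left. Since 1 exon is listed per gene locus, these sides depend on which exon was listed. Whether an inside locus lies in an intron or beyond an end cannot be read from these positions. Genes close to a locus were more often expressed than genes overall. The gene locus reached 1 FPKM in at least 1 library for 95.8% of the 524 inside loci, for 70.3% of 323 near loci with a single nearest gene locus, for 45.4% of 1382 loci with gaps of over 1000 to 10000 bases and for 24.1% of 510 with larger gaps. Over all 137762 gene loci the share was 19.6%. By class, 1 FPKM was reached by 14862 of 16118 new splice forms, 1901 of 1996 other exon overlaps and 10300 of 119648 reference structures. The gene locus of the 323 near loci was a new splice form for 130, another overlap for 15 and a reference structure for 178. The part of class in these shares was not tested.

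The loci were weakly expressed, and more of them were detected in the cadmium library than in the control library. FPKM was above 0 for 3089 of the 3574 loci in cadmium (86.4%) and for 2626 in control (73.5%). Of these, 737 were above 0 in cadmium alone, 274 in control alone, 2352 in both and 211 in neither. Over all 147111 loci the order was the other way, with 23.8% above 0 in cadmium and 28.5% in control. At least 1 FPKM was reached by 1531 loci in cadmium and 1224 in control, 10 FPKM by 160 and 218, and 100 FPKM by 8 and 18. The control library thus held fewer of the weak loci and more of the strong ones. The intergenic loci are listed because reads were assembled there, whereas 102240 of all 147111 loci were at 0 in both libraries. Which libraries the assembly used is not stated. The part of that selection in these counts and in the ratios below was not tested.

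Depth limits what these zeros show. Among the 3252 loci with an exon of at least 500 bases, the median number of fragments above 0 was 8 in cadmium and 10 in control, and 578 loci had only 1 or 2 cadmium fragments while 491 had only 1 or 2 control fragments. Of 1273 such loci with at least 10 cadmium fragments, 186 (14.6%) were listed at 0 in control. Of 902 with at least 17 control fragments, the matching number by the fitted step, 65 (7.21%) were listed at 0 in cadmium. Whether the software failed to estimate some of these values was not tested.

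In the comparison of cadmium with control, the loci as a whole leaned towards cadmium. Over all 3574, the log2 ratio was above 0 for 2194 and below 0 for 1169, with a median of 0.19. At least 1 FPKM in at least 1 library was reached by 1919 loci, 695 of them through cadmium alone, 388 through control alone and 836 in both. Of the 1919, 582 (30.3%) were called higher and 388 (20.2%) lower, with a median of 0.32. Over all 33904 loci that reached 1 FPKM, 20.6% were called higher and 28.6% lower, with a median of -0.07. In unspliced reference-structure loci of at least 500 bases, the gene class most like them in structure, 197 of 1531 were higher and 782 lower. Among all reference-structure loci, 1378 of 10300 were higher and 5612 lower. Stranded intergenic loci leaned towards cadmium too, with 924 of 2565 higher and 335 lower. Gene loci with a new splice form also did, with 2870 of 14862 higher and 2138 lower. Those with another exon overlap did not, with 341 of 1901 higher and 419 lower. Nor did short unstranded intergenic loci, with 672 of 1739 higher and 714 lower. A control value of 0 stood behind 240 of the 582 higher calls, and a cadmium value of 0 behind 148 of the 388 lower ones. With at least a 4-fold difference required, 144 of the 1919 loci were higher and 189 lower. Over all 33904 loci, 2666 were higher (7.86%) and 4784 lower (14.1%). Lower calls thus outnumbered higher ones at this size in both sets.

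**Figure D2:**
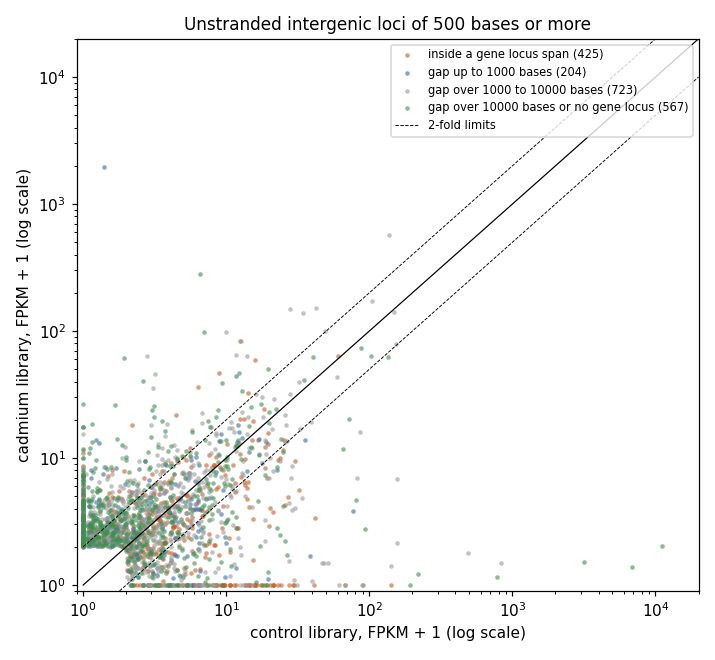
FPKM + 1 in the cadmium library (vertical, log scale) and in the control library (horizontal, log scale) for the 1919 unstranded intergenic loci of 500 bases or more that reached 1 FPKM, coloured by distance from gene loci, 1 point per locus. Most points lie under 10 FPKM in both libraries, and the highest points are 1943 FPKM in cadmium and 11045 FPKM in control.

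Cadmium values above control values were most frequent among the weakest loci. The level is given here as the geometric mean of FPKM + 1 in both libraries, minus 1. At levels up to 1, with no minimum in either library, FPKM was above control in cadmium for 1457 loci, below it for 498 and equal for 211. Over all loci at this level the order was the opposite, with 4937 above and 9712 below. Of all loci at this level that reached 1 FPKM, 1848 were called lower, and 1612 of these were listed at 0 in cadmium. Among the 1474 above 0 in both libraries, 304 were higher and 236 lower, with a median of 0.34. Among the 297 such intergenic loci, 83 were higher and 16 lower, with a median of 0.71. At levels over 1 to 2, 354 intergenic loci were above control and 240 below. From a level of 2 upwards 383 were above and 431 below, and 160 of 814 (19.7%) were called higher and 211 (25.9%) lower, with a median of -0.11. These shares were close to those over all loci at this level, of which 19.8% were higher and 24.1% lower. With the exon of at least 500 bases required, 136 of 641 were higher and 134 lower at that level, with a median of 0.02. With a minimum of 5 FPKM the median of the whole set was -0.27. The part of the difference in fragments per FPKM between the libraries in this pattern was not tested.

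**Figure D3:**
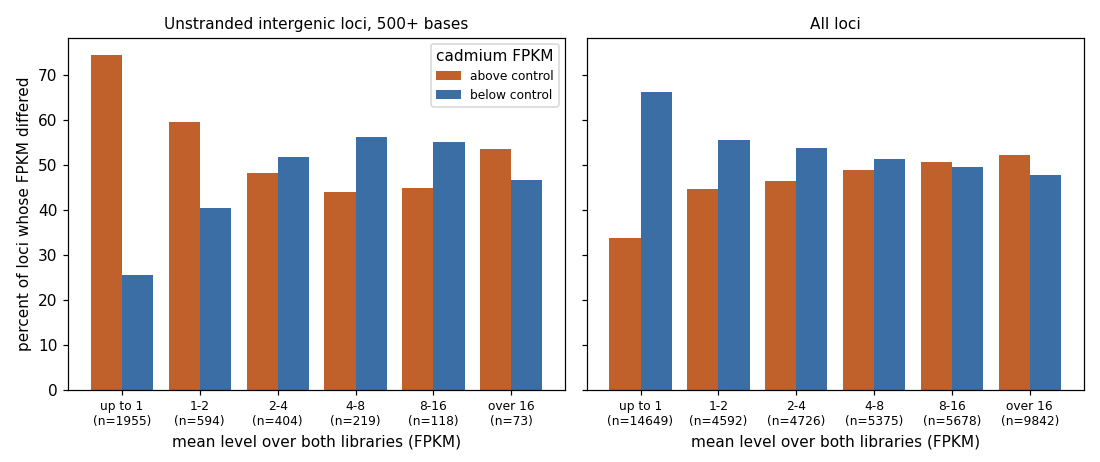
Percent of loci whose cadmium FPKM was above or below their control FPKM (vertical axis), of those in which the libraries differed (n in brackets), by mean level over both libraries in FPKM (horizontal axis), for unstranded intergenic loci of 500 bases or more and for all loci. In the lowest band 1457 intergenic loci were above and 498 below, while over all loci 4937 were above and 9712 below.

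With no minimum level, exon length made little difference to the median among loci that were not merged. The median log2 ratio was 0.29 for 863 loci of 500 to under 700 bases, 0.19 for 766 of 700 to under 1000 and 0.20 for 593 of 1000 to under 1500. It was 0.30 for 344 loci of 1500 to under 3000 bases and 0.36 for 76 of 3000 bases or more. At 1 FPKM or more the longer loci stood out. In the same order of length the medians were 0.48 (548 loci), 0.50 (397), 0.45 (239), 0.68 (141) and 0.97 (36). The shares called lower were 19.9%, 17.9%, 18.0%, 12.1% and 2.78%. Of the 36 longest loci at 1 FPKM, 18 reached it in cadmium alone, and 17 were higher and 1 lower. Merged loci with an exon under 500 bases leaned towards control, with 64 higher and 111 lower of 284, and 64 of those 111 were listed at 0 in cadmium. By the fitted step, 208 bases in cadmium and 204 in control do not count towards the length that FPKM is divided by. The part of exon length in this lean was not tested. The longest exon of all, 11116 bases on scaffold6835 from 87224 to 98339, held 37 cadmium fragments (0.285 FPKM) and none in control. It lay 567 bases upstream of a gene locus that was listed at 0 in both libraries.

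The lean towards cadmium differed in size between distance classes. Of 425 inside loci, 75 were higher (17.6%) and 129 lower (30.4%), with a median of -0.25, close to the 20.6% and 28.6% over all loci. For the 202 inside loci with an exon of at least 500 bases, 33 were higher and 31 lower, with a median of 0.01, and for the 223 with a shorter exon 42 were higher and 98 lower. Near loci leaned slightly towards cadmium. Of 164 upstream ones 42 were higher and 33 lower (median 0.28), and of 25 downstream ones 8 were higher and 5 lower (median 0.11). A wider limit of 2000 bases turned the downstream median to -0.16.

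The share of higher loci was largest among those over 10000 bases from a gene locus or without one. With gaps of over 1000 to 10000 bases, 221 of 723 were higher (30.6%) and 136 lower (18.8%), with a median of 0.43. With larger gaps, 112 of 267 were higher (41.9%) and 45 lower (16.9%), with a median of 0.72. On scaffolds with no gene locus, 118 of 300 were higher (39.3%) and 40 lower (13.3%), with a median of 0.73. With no minimum level, cadmium was above control for 356 inside loci and below it for 343. At gaps of over 1000 to 10000 bases this was 911 above and 428 below, at larger gaps 348 above and 137 below, and without a gene locus 366 above and 144 below. For the loci of the last 2 classes together it was 603 above and 179 below at levels up to 2, and 111 above and 102 below at higher levels. Stranded intergenic loci also had their largest shares of higher loci far from genes, with 39.5% at gaps over 10000 bases and 47.4% without a gene locus. Their shares were 28.9% inside, 27.4% near upstream, 35.2% near downstream and 34.2% at gaps of over 1000 to 10000 bases. The classes of stranded loci rest on the listed exon, which for a spliced locus is part of its transcript.

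**Figure D4:**
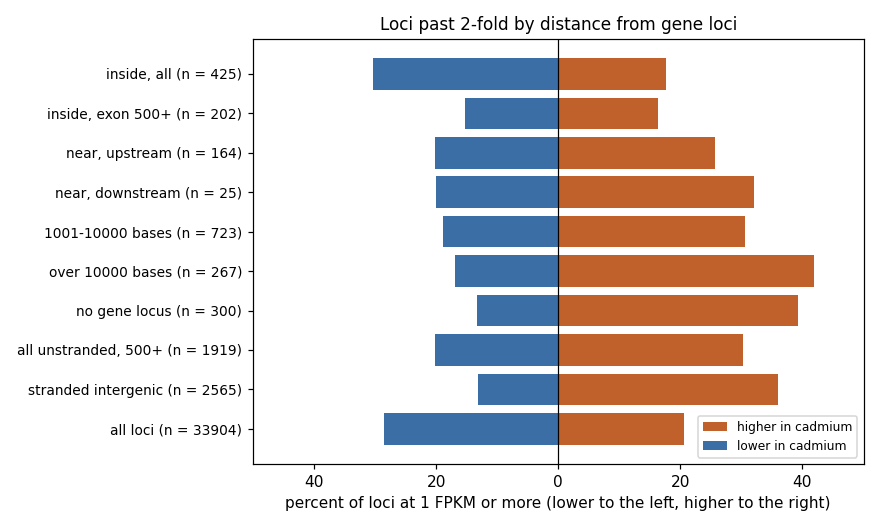
Percent of loci at 1 FPKM or more that were lower (bars to the left) or higher (bars to the right) in cadmium by at least 2-fold on FPKM + 1, by distance from gene loci, with n in brackets. The share of higher loci is 17.6% inside gene locus spans and 41.9% at gaps over 10000 bases, against 20.6% over all loci.

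Near loci and their gene loci were mostly called in the same direction where both were called. Where both reached 1 FPKM and a single gene locus was nearest, 150 near loci could be set beside 150 different gene loci. In 38 pairs both were called, and in 35 of these they were called in the same direction, 13 higher and 22 lower. In 31 pairs the intergenic locus alone was called, in 23 the gene locus alone and in 58 neither. Spearman's correlation between the log2 ratios of the pairs was 0.57. It is a description with no test, since all pairs share the same libraries and their depth. Upstream loci (Spearman correlation 0.56, n = 128) and downstream loci (Spearman correlation 0.56, n = 22) had like values. With 94 pairs at gaps up to 500 bases the Spearman correlation was 0.58, and with 56 pairs at 500 to 1000 bases it was 0.58.

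Beyond that distance the likeness faded. The Spearman correlation was 0.27 for 86 pairs at 1000 to 2000 bases, 0.17 for 164 at 2000 to 5000, -0.02 for 72 at 5000 to 10000 and 0.03 for 66 at larger gaps. Of the 97 pairs beyond 1000 bases in which both were called, 61 were called in the same direction and 36 in opposite ones. Values this weak in loci with few fragments are no finding in either direction. Inside loci had a Spearman correlation of 0.43 over 314 pairs with 238 gene loci, and 44 of 52 pairs with both called had the same direction. With an exon of at least 500 bases this was 15 of 16 pairs. Whether an inside locus and its gene locus share reads was not tested.

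**Figure D5:**
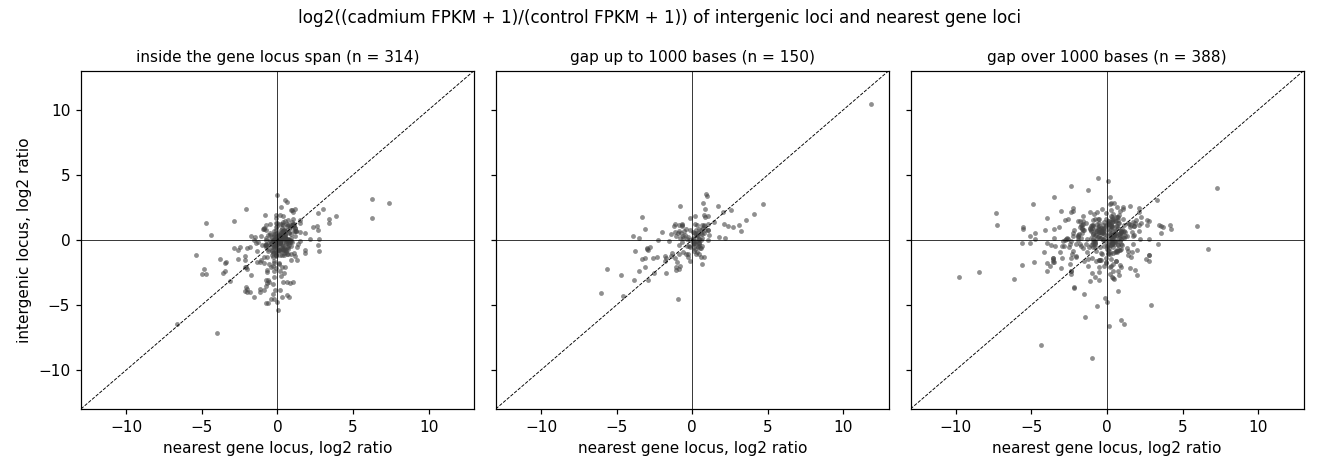
Log2 ratio of the intergenic locus (vertical axis) and of its nearest gene locus (horizontal axis), 1 point per intergenic locus, for loci inside a gene locus span, at gaps up to 1000 bases and at larger gaps; the dashed line marks equal ratios. The points of the middle panel follow the line most closely (Spearman correlation 0.57), and those of the right panel scatter around 0 (Spearman correlation 0.14 at gaps over 1000 bases).

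Where both reached 1 FPKM, most near loci stood below their gene loci in level. At the median of such pairs, a near locus had 36.3% of the FPKM of its gene locus in cadmium (132 pairs above 0). In control this was 20.7% (139 pairs). Inside loci were at 13.8% in cadmium (262 pairs) and 22.2% in control (293 pairs). In 32 of the 150 near pairs the intergenic locus was above its gene locus in cadmium, and in 25 it was above in control. These pairs leave out 35 of 185 near loci at 1 FPKM, whose single nearest gene locus stayed under 1 FPKM. Where the nearest gene locus did not reach 1 FPKM in either library, near loci were higher in 14 of 35 cases and lower in 3, with a median of 0.90. Where it did, their median was 0.11.

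The clearest pair was on contig C4930213, where the locus from 9912 to 10494 lay 460 bases upstream of a reference-structure gene locus on the plus strand. It stood at 1943 FPKM in cadmium, the highest cadmium value of the 3574 intergenic loci, and at 0.399 FPKM in control. This is 8658 cadmium fragments, rounded, against 3 control fragments, a 4867-fold difference with an exact 95% conditional binomial interval of 1665 to 23606, which covers counting error only. Its gene locus, from 10955 to 24446, reached 55194 FPKM in cadmium and 14.3 in control, a 3867-fold difference. Both were thus high in the cadmium library alone and by ratios of like size.

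Other near loci that followed their gene upwards were weaker. The locus on scaffold28139 from 23077 to 23920, 453 bases upstream, was at 7.27 FPKM in cadmium and 0.709 in control, and its gene locus was at 15.8 in cadmium and 1.90 in control. A locus on scaffold1847 from 261850 to 262855, 897 bases upstream, was at 5.90 FPKM in cadmium and 0.126 in control, while its gene locus was at 16.02 in cadmium and 4.34 in control. The second rests on 2 control fragments, and its 46.9-fold difference has a counting interval of 12.4 to 397. These pairs and those that follow were picked with their values known, save where a rule for extremes is named.

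Downward pairs were found on both sides of genes. On scaffold31972 the locus from 47169 to 47852, 403 bases upstream, had the lowest ratio among the 13 near upstream loci that reached 1 FPKM in each library and 10 FPKM in 1 of them. It stood at 2.83 FPKM in cadmium and 75.5 in control, 26.7-fold lower (interval 16.3 to 47.0, from 16 and 719 fragments). Its short gene locus, from 48256 to 48555, was at 5.51 FPKM in cadmium and 155 in control, 28.2-fold lower. On scaffold10459 the locus from 31497 to 32390, 84 bases downstream of its gene locus, was at 0.123 FPKM in cadmium and 18.5 in control. It rests on 1 cadmium and 253 control fragments, a 151-fold difference with an interval of 26.8 to 5980. The gene locus was at 1.03 FPKM in cadmium and 131 in control. A locus on scaffold9817 from 43393 to 44136, 136 bases upstream, was at 12.9 FPKM in cadmium and 34.6 in control, beside a gene locus at 16.7 in cadmium and 87.7 in control.

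Some near loci did not follow their gene. All 3 opposite calls were upstream loci that were higher beside a gene locus that was lower. The best covered, on scaffold10900 from 28894 to 29754, was at 7.21 FPKM in cadmium and 1.46 in control, 4.95-fold higher (interval 2.89 to 8.81). Its gene locus, 256 bases away, was listed at 0 in cadmium and stood at 9.16 FPKM in control. By the rule for extremes, the single near downstream locus that qualified, on scaffold8229 from 55963 to 56701, was at 17.1 FPKM in cadmium and 11.1 in control, with a 1.54-fold difference (interval 1.17 to 2.01) that was too small for a call. Its gene locus was at 6.35 in cadmium and 28.8 in control. The long locus on scaffold22800 from 106125 to 109764 was at 7.03 FPKM in cadmium and 21.6 in control, 97 bases upstream of a gene locus that stood at 0.580 in cadmium and 0.616 in control. The highest ratios among qualifying near upstream loci were small. The locus on scaffold30722 from 36690 to 37255 was at 14.6 FPKM in cadmium and 8.22 in control, and the locus on scaffold30293 from 22007 to 22641 was at 12.6 in cadmium and 8.07 in control.

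At gaps of over 1000 to 10000 bases, the 4 extremes among loci that reached 1 FPKM in each library and 10 FPKM in 1 were not matched by their nearest genes. Without that limit, some lower ratios stood beside genes that were lower too, and others did not. The locus on scaffold1917 from 248893 to 249934 was at 0.504 FPKM in cadmium and 833 in control, and its gene locus was at 13.98 in cadmium and 29.3 in control. The locus on scaffold1534 from 170090 to 170833 was at 0.785 FPKM in cadmium and 487 in control, and its gene locus was at 77.4 in cadmium and 1603 in control. By contrast, a locus on scaffold12076 from 40091 to 41954 was at 0.406 FPKM in cadmium and 140 in control. Its gene locus was at 8.95 in cadmium and 8.27 in control. A locus on scaffold10973 from 72026 to 72232 was at 0 in cadmium and 87.8 in control. Its gene locus was higher, at 166 in cadmium and 76.8 in control. In the class as a whole, 53 of 80 pairs with both called had the same direction, and the Spearman correlation was 0.16 over 322 pairs. The locus on scaffold23243 from 53900 to 54443 was at 62.9 FPKM in cadmium and 1.78 in control, 35.3-fold higher (interval 19.9 to 69.3), while the gene locus 7924 bases away was at 55.8 in cadmium and 54.5 in control. The locus on scaffold5031 from 10490 to 11457 was at 45.1 FPKM in cadmium and 2.18 in control, 20.7-fold higher (interval 14.5 to 30.5), and its gene locus was listed at 0 in cadmium and stood at 1.35 in control. In the other direction, the locus on contig C4944175 from 34666 to 36569 was at 1.14 FPKM in cadmium and 155 in control, 136-fold lower (interval 90.3 to 214). Its nearest gene locus was at 89.1 FPKM in cadmium and 46.5 in control. The locus on scaffold27921 from 15180 to 15874 was at 5.87 FPKM in cadmium and 154 in control, 26.2-fold lower, beside a gene locus at 91.8 in cadmium and 101 in control. One strong locus, on scaffold14437 from 36504 to 37174, was at 572 FPKM in cadmium and 136 in control, 4.22-fold higher (interval 3.95 to 4.51). Its nearest gene locus was at 0.0916 FPKM in cadmium and 177 in control.

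Loci over 10000 bases from any gene locus, under the same limits, showed extremes in both directions. The locus on scaffold7050 from 264632 to 265351 was at 20.2 FPKM in cadmium and 2.15 in control, 9.40-fold higher (interval 5.94 to 15.5). The locus on scaffold8664 from 80670 to 80902 was at 24.9 FPKM in cadmium and 2.15 in control, with an exon of only 233 bases. The locus on scaffold5127 from 60945 to 61907 was at 3.68 FPKM in cadmium and 79.3 in control, 21.6-fold lower (interval 15.3 to 31.5). The locus on scaffold1821 from 101618 to 102662 was at 1.21 FPKM in cadmium and 24.6 in control, 20.4-fold lower (interval 11.6 to 39.9).

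On scaffolds with no gene locus, the highest ratio was on contig C4649977 from 36 to 612. This locus was at 279 FPKM in cadmium and 5.54 in control, 50.4-fold higher (interval 36.9 to 70.5, from 1224 and 41 fragments). A locus on contig C4594699 from 31 to 542 was at 39.6 FPKM in cadmium and 1.64 in control, 24.2-fold higher. The 3 highest control values of the 3574 loci all lay on 1 contig, C4800589, with 1.04, 0.379 and 0.524 FPKM in cadmium and 11045, 6830 and 3167 FPKM in control. Among loci that reached 1 FPKM in each library and 10 FPKM in 1, the lowest ratio after that contig was on scaffold31777 from 15002 to 16496, at 1.76 FPKM in cadmium and 92.5 in control, 52.4-fold lower (interval 35.9 to 79.7).

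Several loci with high values were listed at 0 in 1 library, and no fold is given for them. The highest in cadmium was a 206-base exon on contig C4941863 from 29225 to 29430, at 25.6 FPKM and 0 in control. The next was on scaffold20436 from 13940 to 14465, with 63 fragments (16.7 FPKM) and 0 in control. Among loci listed at 0 in cadmium, the highest was on contig C4862409 from 568 to 1433, with 2518 fragments (192 FPKM) in control. The next of these was a 211-base exon on scaffold4443 from 30885 to 31095, at 140 FPKM in control. Its gene locus was at 3.56 FPKM in cadmium and 70.6 in control. At the limit of the length rule, 2 of the 4 loci of 500 bases had 2.31 and 2.31 FPKM in cadmium and 9.37 and 0.852 in control, and 2 loci of 499 bases just outside it had 0 and 2.31 FPKM in cadmium and 0 and 0 in control.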

How the data were processed

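One RNA-seq library per group was compared. The FPKM values were used as deposited by the authors. The submitters' processing notes name Cuffnorm 2.2.1, Cufflinks 2.2.1 and TopHat2 2.0.13, without settings. The genome build, the number of reads, the strandedness and the libraries used for the transcript assembly are not given in the sources used here. Class codes, strands and exon positions come from the deposited transcript table. Starts in the expression table count from 0 and were raised by 1.

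Gaps were measured from the listed exon to the span of the nearest gene locus, and exons within a gene locus span formed a class of their own, added to the 4 distance classes after the files were seen. Near loci with tied gene loci were left out of pairs. Fragment steps were fitted on unspliced reference-structure loci of 500 to 3000 bases, and intervals are exact 95% conditional binomial (Clopper-Pearson) ones. Such intervals cover counting error only, and without molecular identifiers several fragments can come from the same molecule.

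Loci were named by position: in each distance class the 2 highest and 2 lowest ratios among loci that reached 1 FPKM in each library and 10 FPKM in 1 of them, the 3 highest values per library, the 2 highest listed at 0 in the other library, the longest locus and those at the length limit. Others were chosen after their values were seen. The members, classes and rules were chosen with earlier results of these data known. No gene list, cell type marker or sequence could be matched. Alternatives were pseudocounts, filters, scalings, length and distance limits. Calculations were tested on simulated data. Scripts ran under Python 3.11.15 with scipy 1.17.1, pandas 2.3.3 and numpy 2.4.6, and plots were drawn with matplotlib 3.10.9.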

Additional observations from a re-analysis of the deposited data

How the results depend on the processing

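No paired analysis was possible because cadmium and control had 1 library apiece, and no library could be left out. The alternatives based on an exon of at least 500 bases or on the deposited span were chosen after seeing the data. Among 237 alternative values, 168 stayed within their limits (1.5 times for counts, a 95% interval for medians, shares and Spearman correlations), 63 moved and 6 changed sign. Of 156 values for single named loci, 104 moved by under 0.5 in log2 ratio, 52 by more and 0 changed sign. The cause of the moves was not tested, save that stricter limits leave fewer loci.

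Higher and lower counts (582 and 388) were 111 and 164 with a pseudocount of 5, 163 and 224 at 5 FPKM, 252 and 208 at lengths of 1000 or more, 342 and 240 above 0 in both libraries, and 144 and 189 by a 4-fold rule (background 7.86% and 14.1%). More loci were therefore lower than higher with the pseudocount of 5, at 5 FPKM and by the 4-fold rule. Over all loci, lower calls led by the 4-fold rule too, and already by the main rule (20.6% higher, 28.6% lower). Above 0 in both libraries, 5658 of all 28532 loci were higher and 5656 lower. Shares over all loci under the other settings are not given here. No turn particular to the intergenic loci can therefore be read from these counts. The median of 0.32 turned to -0.27 at 5 FPKM. It was 0.47 for a pseudocount of 0.1, 0.13 for 5, 0.19 with no minimum level, 0.47 after upper quartiles were made equal (the cadmium library shifted by 0.15 in log2), 0.20 at lengths of 1000 or more, 0.23 above 0 in both libraries and 0.43 with an exon of at least 500.

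The inside median of -0.25 was 0 without a filter, -1.24 at 5 FPKM and 0.0102 with an exon of at least 500. The near upstream median turned to -0.46 at 5 FPKM and the near downstream median to -0.16 with a limit of 2000 bases. The median at gaps of over 1000 to 10000 bases was 0.59 for a pseudocount of 0.1, 0.19 for 5, 0.23 with no minimum level, -0.0656 at 5 FPKM and 0.59 with equal upper quartiles. At larger gaps it was 1.16, 0.27, 0.28 and 0.27 under the first 4 of these and 0.32 above 0 in both libraries. Without a gene locus it was 1.21, 0.27, 0.30 and 0.0054 under the first 4 and 0.48 above 0 in both.

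Position counts fell by construction at lengths of 1000 or more (110 near upstream, 17 near downstream, 8 near of unknown side, 673, 237 and 181 in the wider classes) and among loci at 1 FPKM (425 inside, 164, 25, 723, 267 and 300). With near set at 500 bases they were 178, 28 and 13, and at 2000 bases 484, 98 and 34. Inside loci numbered 465 with an exon of at least 500. With the nearest taken among gene loci at 1 FPKM, 853 had a gap of over 1000 to 10000 bases and 1134 had no such gene locus. In each of these settings upstream loci outnumbered downstream ones among near loci. All of the settings kept to loci with class code u.

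The share of called pairs with the same direction was 84.6% for inside loci and 100%, 95.7%, 94.4% and 93.8% with a pseudocount of 5, at 5 FPKM, by a 4-fold rule and with an exon of at least 500. For near loci it was 92.1%, and 100% with a pseudocount of 5 and by a 4-fold rule. Beyond near it was 62.9%, and 50.3% with the nearest expressed gene locus. The Spearman correlation of near pairs was 0.35 without a filter and 0.69 at 5 FPKM. The Spearman correlation beyond near, 0.14, was -0.0001 at lengths of 1000 or more.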

Other observations

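Unstranded loci often followed each other along a scaffold. With exons at most 1000 bases apart joined, 830 of the 3574 loci fell into 342 runs of at least 2, and the longest runs held 7 loci. Neighbouring loci at 1 FPKM or more within such gaps had like log2 ratios (Spearman correlation 0.71 over 165 pairs), and in 58 of the 60 pairs with both called the direction was the same. At gaps of over 1000 to 10000 bases the Spearman correlation was 0.55 over 75 pairs and 22 of 26 called pairs had the same direction. At larger gaps it was 0.12 over 62 pairs, with 13 of 20. All pairs share the same libraries, and a locus can belong to 2 pairs.

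One run of 6 inside loci on scaffold23868, from 144185 to 155675, had between 0.727 and 4.08 FPKM in cadmium and between 0.676 and 4.28 in control, and none of its 5 loci at 1 FPKM was called. A run of 6 on scaffold15435, from 21239 to 25804, had between 0 and 1.91 FPKM in cadmium and between 0.638 and 28.5 in control, with 2 of 5 lower. Of the 1066 loci that were over 10000 bases from a gene locus or had none, 138 lay within 1000 bases of a stranded intergenic locus or inside its span. Over the 74 such pairs at 1 FPKM, the Spearman correlation between the log2 ratios was 0.55. These runs and pairs were looked at after the other results had been seen, and no explanation was tested.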
